A study of Rattus norvegicus with 24 samples.

Results

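The 30 genes described here encode enzymes and regulators of cholesterol and fatty acid synthesis. They were chosen by gene name from a fixed list, out of 32883 genes in the deposited tables, and the transcript values of each gene were added up. All 30 were among the 13999 genes that passed the filter on low values. They fall into 7 genes of the mevalonate arm (Acat2, Hmgcs1, Mvk, Pmvk, Mvd, Idi1, Fdps), 11 of the sterol arm (Fdft1, Sqle, Lss, Cyp51, Tm7sf2, Msmo1, Nsdhl, Hsd17b7, Ebp, Sc5d, Dhcr7), 5 regulators and carriers (Insig1, Srebf1, Srebf2, Scap, Stard4) and 7 of the fatty acid arm (Acly, Acaca, Fasn, Scd, Elovl6, Fads1, Fads2).

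The cells were primary striatal cultures from neonatal rats after 7 days in vitro, and RNA was sequenced after ribosomal RNA depletion. The agonist SKF acts on the D1 dopamine receptor, the receptor through which dopamine excites one class of striatal projection neurons. JQ1 and iBD2 are inhibitors of bromodomains, the protein modules that read acetylated lysines on histones. The labels name no strain, sex or dose. Experiment 1 held DMSO vehicle, SKF, JQ1, and SKF with JQ1, each for 60 min. Experiment 2 held DMSO, SKF, iBD2, and SKF with iBD2, each for 60 min. Experiment 3 repeated the JQ1 arrangement for 24 h. Every group carried DMSO in place of each agent it lacked. The labels list 24 samples in 12 groups of 2, numbered 5 and 6 in experiments 1 and 3 and 1 and 2 in experiment 2. Replicate 2 of SKF with iBD2 was not analysed here, which left 23 libraries and 1 library in that group. The labels do not say if replicates are different cultures or animals, so p-values measure only the spread between libraries, which may be technical.

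Cholesterol is built from acetyl-CoA through mevalonate to farnesyl diphosphate and squalene, which is then folded into a ring and trimmed to cholesterol. In brain it is made locally, since plasma lipoproteins do not cross the blood-brain barrier, and astrocytes supply much of it to mature neurons. Transcription of the pathway follows sterol supply. When sterols are scarce, the escort protein SCAP carries the precursors of the SREBP factors, encoded by Srebf1 and Srebf2, from the endoplasmic reticulum to the Golgi for cleavage, and INSIG1 holds that complex back when sterols are plentiful. SREBP-2 is known chiefly for cholesterol genes and SREBP-1c for fatty acid genes, and both work with the CCAAT-binding factor NF-Y at many of these promoters.

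Promoter letters were available for 23 of the 30 genes in a RefSeq table of the assembly GRCr8, as 24 start sites because Srebf1 had 2. The letters CCAAT, or ATTGG on the other strand, were present in the 250 bases upstream of 18 of these 24 starts (75.0%, from 17 genes), against 34.0% of the 33469 promoters in the table. The letters TGACG, the core of the cAMP response element, were present on either strand in 11 of 24 (45.8%), against 18.2% of all promoters. No start had TGACGTCA, the full element (1.59% of all promoters), or TCACNCCAC, a sterol regulatory element (0.974% of all promoters). At such low rates 24 starts would often hold none, and only these exact letters were searched. Their absence therefore does not show that these promoters lack the elements. These are matches of letters on both strands, not measured sites, and TGACGTCA contains TGACG. The 5 promoters below belong to the genes on which the results turn: Idi1 and Cyp51, which rose with SKF, Insig1, whose difference between vehicle groups was among the largest, and Hmgcs1 and Mvk, early steps of the mevalonate arm that went opposite ways after 24 h of JQ1. They lie at chr2:53382054-53382303 (plus strand), chr12:47819504-47819753 (minus), chr17:66547525-66547774 (minus), chr4:30991443-30991692 (plus) and chr4:8057770-8058019 (minus) in GRCr8. Each is written 5′ to 3′ toward its start site, with CCAAT or ATTGG in capitals.
Hmgcs1: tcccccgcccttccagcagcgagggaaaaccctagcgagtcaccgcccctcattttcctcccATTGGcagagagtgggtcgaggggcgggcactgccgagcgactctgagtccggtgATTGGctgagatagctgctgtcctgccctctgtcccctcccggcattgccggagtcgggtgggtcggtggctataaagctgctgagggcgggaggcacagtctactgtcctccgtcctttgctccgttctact
Mvk: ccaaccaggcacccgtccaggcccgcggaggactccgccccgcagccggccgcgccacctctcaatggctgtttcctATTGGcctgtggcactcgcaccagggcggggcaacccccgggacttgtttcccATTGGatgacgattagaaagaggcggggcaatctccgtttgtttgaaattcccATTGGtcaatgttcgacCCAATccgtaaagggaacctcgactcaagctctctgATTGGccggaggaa
Idi1: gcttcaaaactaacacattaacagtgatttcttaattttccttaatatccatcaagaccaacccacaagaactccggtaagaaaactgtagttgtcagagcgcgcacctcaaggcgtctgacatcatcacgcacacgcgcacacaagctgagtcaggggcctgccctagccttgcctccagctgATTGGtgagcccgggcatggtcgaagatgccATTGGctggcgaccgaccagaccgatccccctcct
Cyp51: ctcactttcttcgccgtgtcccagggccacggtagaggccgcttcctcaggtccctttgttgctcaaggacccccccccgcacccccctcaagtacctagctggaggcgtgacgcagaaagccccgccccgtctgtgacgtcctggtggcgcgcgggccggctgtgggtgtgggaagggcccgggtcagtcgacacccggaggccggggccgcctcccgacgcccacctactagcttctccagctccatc
Insig1: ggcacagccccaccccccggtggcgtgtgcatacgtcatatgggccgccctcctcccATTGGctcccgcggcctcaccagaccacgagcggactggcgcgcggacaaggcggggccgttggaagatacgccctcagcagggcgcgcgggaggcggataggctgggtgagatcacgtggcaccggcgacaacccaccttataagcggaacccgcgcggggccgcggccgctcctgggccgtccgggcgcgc
Mvk held 5 of these boxes, Hmgcs1 and Idi1 held 2 each, Insig1 held 1 and Cyp51 held none. Cyp51 had 2 TGACG matches, Mvk and Insig1 had 1 each, and Idi1 and Hmgcs1 had none.

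Levels below are FPKM (fragments per kilobase of transcript and of sequencing depth) divided by a size factor for each library. Changes are log2 fold changes of FPKM + 0.5 with their standard errors, which understate the change of genes near 0. Aligned sequence came to 4.36 to 14.9 gigabases per library, and 6.57 to 13.3% of the sequence on transcripts was mitochondrial. The treatment labels were checked on 2 genes. Nr4a2, an early response gene, went from 4.73-5.42 FPKM with DMSO to 31.1-38.5 with SKF (experiment 1) and from 3.14-3.43 to 35.7-38.0 (experiment 2). Hexim1, a gene that rises when BET bromodomains are blocked, was at 5.57 to 7.01 with DMSO and 15.0 to 15.6 with JQ1 at 60 min, and at 5.52 to 6.62 and 17.3 to 18.0 at 24 h. With iBD2 at 60 min it was at 6.05 to 6.55, against 4.19 to 4.32 with DMSO. At 24 h Nr4a2 was at 1.01 to 1.1 with DMSO and 1.1 to 1.16 with SKF, so it does not check the 24 h SKF label. The 10 neuron markers summed to between 2340 and 3030 FPKM in every library, with none at 0, and markers of astrocytes, microglia and oligodendrocyte lineage were present beside them. Of the fibroblast and endothelial list 6 of 8 genes were found in the tables, and they summed to at most 2.85 FPKM.

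Before any drug, the cultures of experiment 2 had more transcript from most of the pathway than those of the other experiments. Counting a gene as higher when the DMSO means of log2(FPKM + 0.5) differed by at least 1.5-fold and the 2 libraries of each group did not overlap, 19 of 30 genes were higher in experiment 2 than in experiment 1, against 2.31% of all genes tested, and 1 was lower, against 7.05%. Against experiment 3 the counts were 18 higher (2.72% of all genes) and 1 lower (7.24%). Experiments 1 and 3 had no such gene in either direction (0.1% and 0.3% of all genes). The median difference over the 30 genes was 0.82 on the log2 scale for experiment 2 over experiment 1, and 0.74 over experiment 3, with 0.00 over all genes in both. These are descriptions without a test, and experiment, culture batch and library batch cannot be told apart.

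Insig1 had one of the largest gaps. It stood at 4.35 and 4.24 FPKM in the DMSO libraries of experiment 1, at 3.54 and 5.07 in experiment 3, and at 15.7 and 16.4 in experiment 2. Fdft1, squalene synthase, which commits farnesyl diphosphate to sterols, read 6.02 and 4.95 in experiment 1 and 5.42 and 7.13 in experiment 3. In experiment 2 it read 19.0 and 20.7, well clear of the other 4 libraries. Acat2, the thiolase that joins acetyl-CoA units, was at 3.05 and 2.82, at 3.07 and 4.02, and at 8.91 and 8.40 in the order of experiments 1, 3 and 2. Hmgcs1, which makes HMG-CoA, was at 30.6 and 27.9, then 27.4 and 35.0, then 76.3 and 78.8 in the same order. Summed over its 11 genes the sterol arm came to 93.7 and 92.1 FPKM in experiment 1, to 92.9 and 109 in experiment 3, and to 191 and 194 in experiment 2.

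Most of the fatty acid arm and part of the regulators lay closer together between experiments. Among the 7 fatty acid genes only Scd, the stearoyl-CoA desaturase, met the criterion against experiment 1, at 0.435 and 0.370 FPKM against 1.28 and 1.10. The other 6 lay between a log2 difference of -0.09 (Fads1) and 0.52 (Elovl6). Scap was level in all 3 vehicle groups, at 29.6 and 29.8, at 30.5 and 29.8, and at 29.2 and 29.1 FPKM in experiments 1, 2 and 3. Srebf1 was the exception in direction, at 8.22 and 8.38 in experiment 1 and 8.74 and 8.37 in experiment 3 but 4.54 and 5.03 in experiment 2. Srebf2 went with the sterol genes, at 24.7 and 25.0, 22.7 and 27.9, and 43.6 and 45.5 in experiments 1, 3 and 2.

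**Figure D1:**
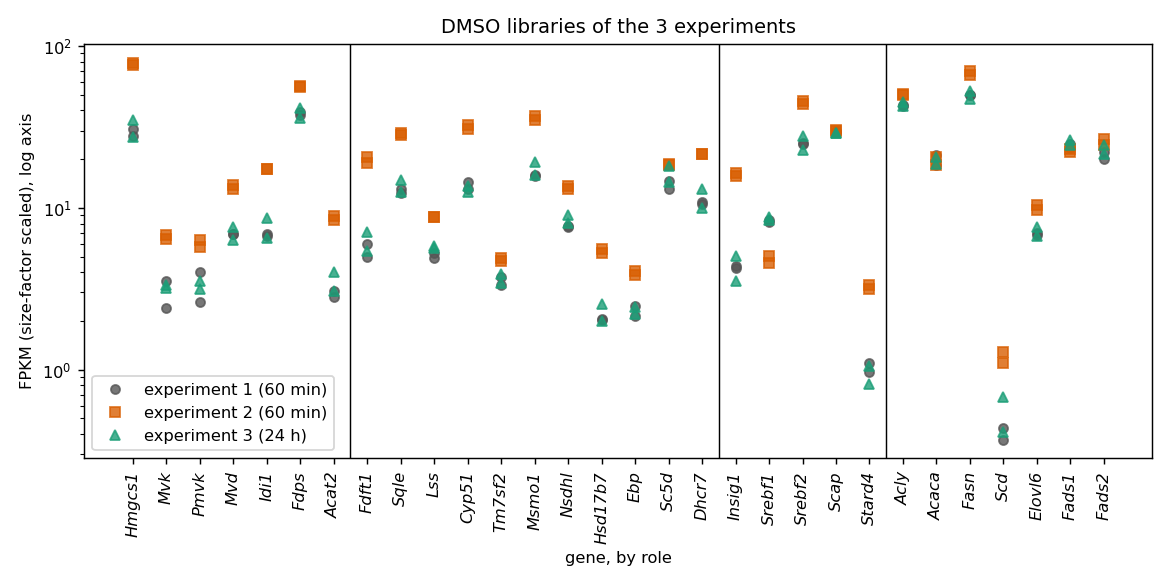
FPKM of the 30 genes in the 6 DMSO libraries, on a log axis, with genes in the order of their role and vertical lines between roles. Experiment 2 (squares) lies above experiments 1 and 3 for most mevalonate and sterol genes, below them for Srebf1, and level with them for Scap.

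Glial markers differed between the same vehicle groups. The 10 astrocyte markers summed to 173 and 161 FPKM in the DMSO libraries of experiment 2, against 429 and 466 in experiment 1 and 550 and 454 in experiment 3, with none of the 10 at 0 anywhere. Aqp4, an astrocyte water channel, ranged from 10.6 to 11.2 FPKM there, from 44.0 to 52.4 in the vehicle libraries of experiment 1 and from 50.3 to 60.8 in those of experiment 3. Microglia markers summed to 45.2 and 40.1, against 90.8 and 80.3 and against 90.1 and 74.0. In bulk RNA fewer cells of a type and less RNA per cell cannot be told apart, and the part of cell composition in the difference was not tested. The libraries of experiment 2 also had 6.57 to 7.38% of their sequence on transcripts from mitochondria, against 9.91 to 13.3% in the other experiments. Its DMSO libraries held 4.56 and 4.88 gigabases, against 7.23 and 8.13 in experiment 1 and 8.31 and 14.9 in experiment 3, and the part of these in the difference was not tested.

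Libraries of 1 group also differed in member levels. In the SKF group of experiment 1, 27 of 30 genes were higher in replicate 6 than in replicate 5, with a median log2 difference of 0.25, where 48.8% of all genes were higher and the median was 0.00. Astrocyte markers summed to 395 FPKM in replicate 6 and 522 in replicate 5, and microglia markers to 69.1 and 97.6. In the DMSO group of experiment 3, 24 of 30 genes were higher in replicate 6 (median 0.19, 47.0% of all genes), and astrocyte markers stood at 454 there and 550 in replicate 5. The other groups of experiment 3 had 25 to 26 of 30 genes higher in replicate 6, with medians of 0.07 to 0.11. Their astrocyte markers, in replicates 5 and 6, summed to 459 and 437 with SKF, 480 and 413 with JQ1, and 596 and 456 with both. The part of cell composition in these differences was not tested.

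**Figure D2:**
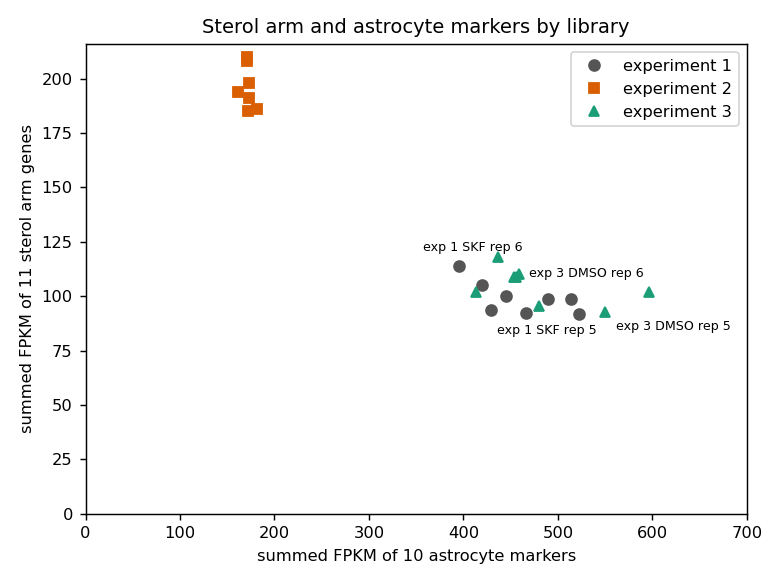
Summed FPKM of the 11 sterol arm genes against the summed FPKM of 10 astrocyte markers, 1 point per library, by experiment. Experiment 2 sits apart at 161 to 182 FPKM of astrocyte markers with 185 to 210 FPKM of sterol genes, and the 4 named libraries are the replicate pairs of 2 groups whose member levels stood apart.

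SKF for 60 min raised 2 of the 30 genes over experiments 1 and 2 combined, Idi1 and Cyp51, and lowered none, where 3.11% of all genes rose and 0.864% fell (limma, adjusted p under 0.05). Idi1, the isomerase that turns isopentenyl diphosphate into the starter unit for chain building, lies on the minus strand of chromosome 17 at 57976268 to 57984036 in Rnor_6.0. It was at 6.74 and 6.85 FPKM with DMSO and 7.65 and 11.4 with SKF in experiment 1, and at 17.4 and 17.3 and 26.1 and 25.1 in experiment 2. All 4 SKF libraries lay above their DMSO libraries, though in experiment 1 replicate 5 did so narrowly. The change over both experiments was 0.49 ± 0.09 (SE; limma adjusted p = 0.0031), 0.43 ± 0.13 in experiment 1 alone (adjusted p = 0.16) and 0.55 ± 0.13 in experiment 2 alone (adjusted p = 0.029). The value in experiment 1 was 0.16 without SKF replicate 6, and 0.71 and called without SKF replicate 5.

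Cyp51, the cytochrome P450 that demethylates lanosterol, lies on chromosome 4 at 27175243 to 27194018. It was at 14.4 and 13.0 FPKM with DMSO and 16.0 and 20.4 with SKF in experiment 1, and at 30.9 and 32.5 and 40.3 and 39.3 in experiment 2. SKF libraries were higher without overlap in both. The change was 0.36 ± 0.06 over both (limma adjusted p = 0.0011), 0.39 ± 0.09 in experiment 1 (adjusted p = 0.021) and 0.32 ± 0.09 in experiment 2 (adjusted p = 0.063). Cyp51 was thus the gene called in experiment 1, where 1.58% of all genes rose and 0.136% fell, and Idi1 the gene called in experiment 2, where 2.02% rose and 0.3% fell. Both pooled calls held in all 30 alternatives tried, with Idi1 between 0.35 and 0.63 and Cyp51 between 0.27 and 0.44. The calls within an experiment did not: Cyp51 in experiment 1 was lost without SKF replicate 6 (0.22, adjusted p = 0.42) or DMSO replicate 6 (0.32, adjusted p = 0.22), and Idi1 in experiment 2 was lost without any 1 of its 4 libraries (0.52 to 0.58, adjusted p = 0.13 to 0.20).

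Insig1 and Stard4, the latter a soluble carrier of cholesterol between membranes, came next in the pooled test and did not pass it. Insig1 was at 4.05 and 7.58 FPKM with SKF against 4.35 and 4.24 with DMSO in experiment 1, so the groups overlapped, and at 22.7 and 22.9 against 15.7 and 16.4 in experiment 2, where they did not. Its pooled change was 0.42 ± 0.14 (limma adjusted p = 0.14), between 0.21 without SKF replicate 6 and 0.62 without SKF replicate 5 of experiment 1. In experiment 1 it was 0.34 ± 0.20 (adjusted p = 0.79), and -0.08 without SKF replicate 6 but 0.75 without SKF replicate 5 (adjusted p = 0.010). Stard4 was at 1.12 and 1.35 against 1.10 and 0.970, and at 4.02 and 4.46 against 3.14 and 3.33 FPKM, a pooled change of 0.26 ± 0.07 (adjusted p = 0.062). Without SKF replicate 5 of experiment 1 the pooled count was 5 (Cyp51, Idi1, Insig1, Msmo1 and Stard4), and without SKF replicate 6 it was 2. Across the list 24 of 30 changes were above 0, against 51.8% of all genes, with a median of 0.04 against 0.00, and 4 genes had an unadjusted p under 0.05, against 13.7% of all genes. The count above 0 was 12 without SKF replicate 6 and 17 on FPKM as deposited, where 64.0% of the calls in all genes were higher, against 78.3% after scaling. Both SKF libraries lay above both DMSO libraries for 4 members in experiment 1 (14.9% of all genes) and for 12 in experiment 2 (25.0%), and below for none (14.1% and 20.9%).

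**Figure D3:**
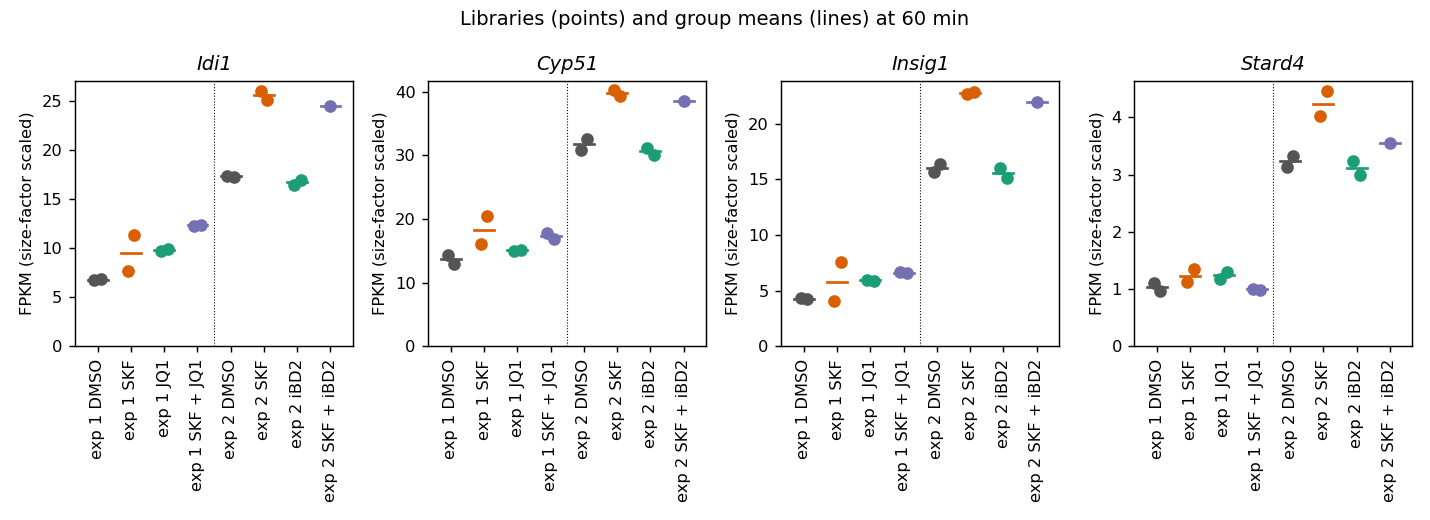
FPKM of Idi1, Cyp51, Insig1 and Stard4 in the 60 min libraries of experiments 1 and 2 (points, with a line at the group mean). In experiment 2 SKF libraries stand above DMSO libraries for each gene. On the FPKM axis the 2 SKF libraries lie closer together in experiment 2 than in experiment 1 for Idi1, Cyp51 and Insig1, but not for Stard4.

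Idi1 overlaps Wdr37 on the opposite strand, which was at 22.9 to 29.4 FPKM in these libraries. Wdr37 changed by 0.08 ± 0.04 with SKF and by -0.04 ± 0.06 with JQ1 at 60 min, and passed neither test. The library kit keeps strand, per the labels, but whether strand was used in counting is not stated in the labels or file headers. Marker lists moved little with SKF at 60 min: 1 of 10 neuron markers rose, and none of the astrocyte, microglia or oligodendrocyte lineage markers was called in the pooled test.

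JQ1 for 60 min called 1 of the 30 genes, Idi1 again, and none lower (1.86% and 2.54% of all genes). Idi1 was at 9.75 and 9.91 FPKM with JQ1, above the 6.74 and 6.85 of DMSO, a change of 0.50 ± 0.13 (limma adjusted p = 0.034). That call did not hold without any 1 of the 4 libraries (0.49 to 0.51, adjusted p = 0.12 to 0.17), in the fit to experiment 1 alone (adjusted p = 0.14), without the filter on low values (adjusted p = 0.19) or with limma voom on estimated fragments (0.53, adjusted p = 0.066). Acat2 and Dhcr7, a reductase at the end of the sterol arm, each changed by 0.32 ± 0.11 (adjusted p = 0.12), Acat2 from 3.05 and 2.82 to 3.70 and 3.90 FPKM and Dhcr7 from 10.5 and 10.9 to 14.1 and 13.0. Insig1 went from a mean of 4.3 FPKM with DMSO to 5.92 with JQ1, without overlap, and was not called. Mvk changed by 0.33 ± 0.13 (adjusted p = 0.25), from 3.54 and 2.41 to 3.78 and 3.83, but by 0.09 without DMSO replicate 6 and by 0.56, and called, without DMSO replicate 5. In 21 of the 30 genes both JQ1 libraries lay above both DMSO libraries (20.8% of all genes), and in 1, Elovl6, both lay below (20.5%). The median change was 0.11, 8 genes had an unadjusted p under 0.05 (14.2% of all genes), and 28 of 30 changes were above 0 (53.6%), or 24 on FPKM as deposited.

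Adding JQ1 to SKF for 60 min lowered Msmo1 and raised no member (3.81% and 2.74% of all genes). Msmo1, the methylsterol oxidase that acts after Cyp51, was at 15.5 and 19.8 FPKM with SKF and 12.8 and 14.0 with SKF and JQ1, a change of -0.38 ± 0.10 (limma adjusted p = 0.023). Without SKF replicate 6, the higher SKF library, it was -0.20 (adjusted p = 0.31). It was also lost without SKF with JQ1 replicate 5 (-0.32, with adjusted p = 0.24) and without its replicate 6 (-0.44, with adjusted p = 0.052), in experiment 1 fitted alone (adjusted p = 0.063) and without the filter (adjusted p = 0.15). The estimates were above 0 for 16 of 30 members (51.8% of all genes). Libraries did not overlap for 5 members that were higher (23.4% of all genes) and 3 that were lower (22.1%). Idi1 reached 12.3 and 12.4 FPKM with both agents, above every other 60 min library of experiment 1, and its change on adding JQ1 was 0.38 ± 0.13 (adjusted p = 0.099), or 0.11 without SKF replicate 5 and 0.66 without SKF replicate 6. With SKF replicate 6 left out, Msmo1 was not called, and Idi1 and Insig1 were called higher. The JQ1 effect did not pass a test of difference between cultures with and without SKF for any member (0.00714% of all genes did). The median difference was -0.15 with 6 of 30 above 0 (49.0% of all genes), and 0.03 with 17 above 0 without SKF replicate 6. The lowest unadjusted p in that test were 0.012 for Msmo1 and 0.016 for Stard4.

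iBD2 for 60 min called no member in either direction (0.171% of all genes higher and 0.0% lower), with 1 unadjusted p under 0.05, for Acaca (6.59% of all genes). Acaca, the carboxylase that makes malonyl-CoA, was at 22.6 and 21.6 FPKM with iBD2 and 18.3 and 20.7 with DMSO (0.18 ± 0.07, limma adjusted p = 0.69). The estimates were above 0 for 11 of 30 members (51.3% of all genes), with a median of -0.03, and for 11 of 30 when iBD2 was added to SKF (51.2%). Idi1 was at 16.5 and 17.0 with iBD2 against 17.4 and 17.3, and at 24.5 with SKF and iBD2 against 26.1 and 25.1 with SKF. Cyp51 was at 38.6 with both agents against 40.3 and 39.3, and Insig1 at 22.0 against 22.7 and 22.9. The SKF with iBD2 group is 1 library, assumed to vary like the others, and no member was called in it against SKF (0.0143% of all genes higher and 0.00714% lower; 1 unadjusted p under 0.05, for Ebp, against 4.96% of all genes). JQ1 and iBD2 were compared at 60 min as the difference of their effects, each over its own DMSO, at doses the labels do not give. Each agent has its own experiment and DMSO group, so agent and experiment cannot be told apart. No member passed the test of that difference (0.907% of all genes did), and 4 had an unadjusted p under 0.05 (8.56% of all genes). The difference was 0.55 for Idi1 with a 95% interval of 0.16 to 0.94 (adjusted p = 0.26) and 0.49 for Mvk (0.08 to 0.89, adjusted p = 0.42). For Cyp51 it was 0.19 (-0.07 to 0.44). Left out in turn, SKF replicates 5 and 6 of experiment 1 each gave 1 call, Idi1. Neither library is part of this comparison, so the estimate stayed at 0.55 and only the shared spread changed.

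After 24 h of SKF no member passed the test in either direction (0.636% of all genes rose and 0.857% fell). The 30 estimates were between 0.00 and 0.42 with a median of 0.12, where 49.8% of all genes were above 0, and 6 had an unadjusted p under 0.05 (9.74% of all genes). In 12 members both SKF libraries lay above both DMSO libraries (18.4% of all genes), and in none below (19.5%). Without DMSO replicate 5, 19 of 30 estimates were above 0 and the median was 0.04, while without DMSO replicate 6 the median was 0.23. Cyp51 was at 12.6 and 13.6 FPKM with DMSO and 15.1 and 16.4 with SKF (0.26 ± 0.09, limma adjusted p = 0.21). Idi1, at 6.50 and 8.65 against 8.28 and 7.82, overlapped. Fads1, a desaturase of polyunsaturated fatty acids, was at 24.3 and 26.1 against 28.2 and 28.8 (0.18 ± 0.05, adjusted p = 0.12), and Ebp, the sterol isomerase, at 2.43 and 2.21 against 3.39 and 2.95 (0.38 ± 0.12, adjusted p = 0.17). In the same comparison 9 of 10 microglia markers fell, from sums of 90.1 and 74.0 to 45.4 and 32.6 FPKM, with none at 0. Astrocyte markers summed to 459 and 437 against 550 and 454, with none called, and their part in the member values was not tested. No member passed the test of difference between the SKF effects at 24 h and 60 min (0.493% of all genes higher and 1.96% lower). There were 3 unadjusted p under 0.05 (12% of all genes). The times come from different experiments with their own DMSO groups, so time and experiment cannot be told apart. For Idi1 the difference was -0.40 ± 0.16 (adjusted p = 0.30), and it was called without SKF replicate 5 of experiment 1. It was -0.59 without DMSO replicate 5 of experiment 3 and -0.20 without DMSO replicate 6.

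JQ1 for 24 h changed 16 of the 30 genes, 7 higher and 9 lower, against 28.1% of all genes higher and 28.6% lower. That is 53.3% of the list against 56.7% of all genes, so the number called is near the background, and the median was 0.00. With SKF present JQ1 changed 18, 6 higher and 12 lower (27.7% and 28.7% of all genes), or 60.0% of the list against 56.4%, with a median of -0.15. The 2 comparisons use different libraries. Of the genes that rose, 6 did so in both (6 of 7 and 6 of 6), of those that fell, 9 did so in both (9 of 9 and 9 of 12), and none went opposite ways. The same overlap was not counted over all genes, so it cannot be read as particular to this list. Genes of both directions stood in each of the 4 arms. On FPKM as deposited the calls in all genes split 34.3% higher without SKF, against 49.6% after scaling, and 38.1% against 49.2% with SKF. The members were then 6 higher and 11 lower without SKF, and 6 higher and 13 lower with it.

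**Figure D4:**
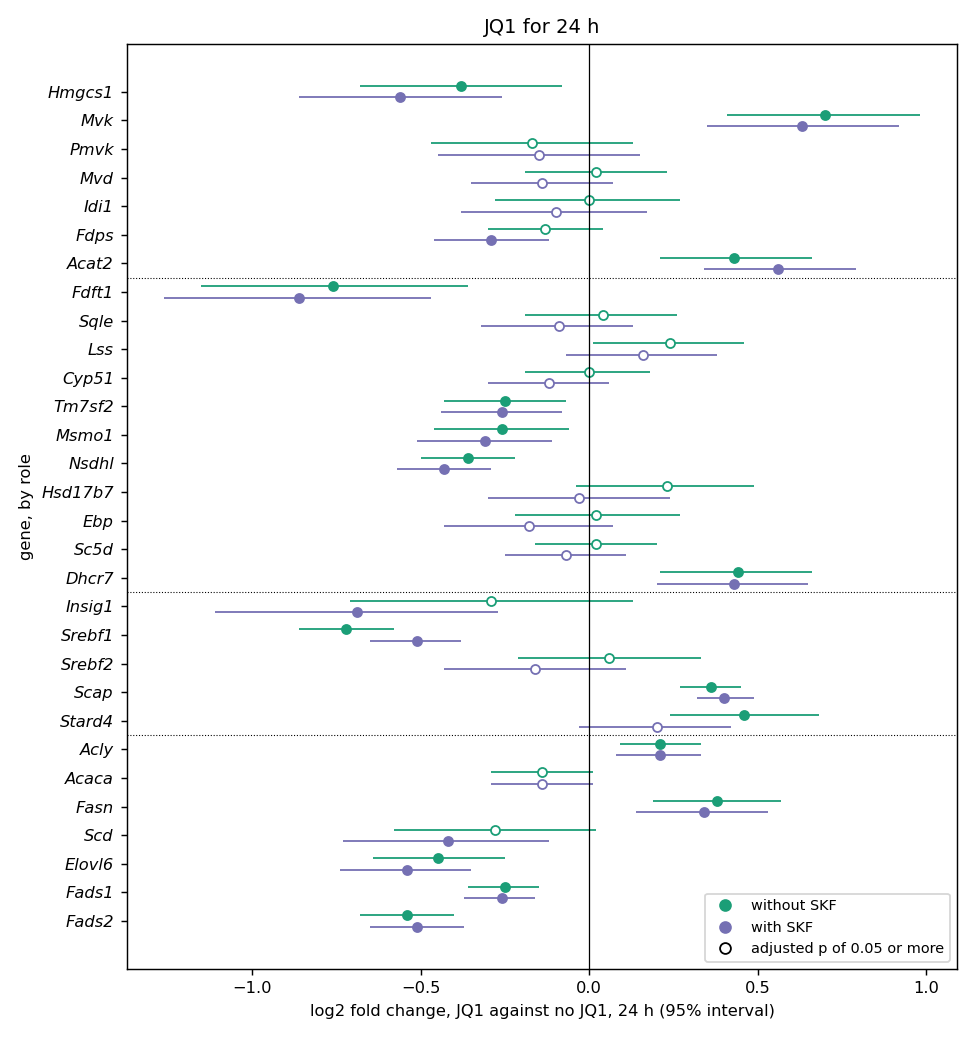
Log2 fold change of each gene after 24 h of JQ1, with its 95% interval, without SKF (green) and with SKF (purple), with filled points for an adjusted p under 0.05 and genes in the order of their role. Mvk, Acat2, Dhcr7, Scap, Acly and Fasn lie above 0 in both series and Fdft1, Hmgcs1, Nsdhl, Srebf1, Elovl6 and Fads2 below 0.

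In the mevalonate arm 2 of 7 genes rose and 1 fell with JQ1 alone. Mvk, mevalonate kinase, on the minus strand of chromosome 12 at 47904719 to 47919400, had the largest rise of the 30. It was at 3.36 and 3.19 FPKM with DMSO and 5.21 and 6.05 with JQ1 (0.70 ± 0.13, limma adjusted p = 0.00033), and at 3.42 and 3.37 with SKF and 5.18 and 5.91 with both (0.63 ± 0.13, adjusted p = 0.00073). Both groups with JQ1 were clear of both groups without it. Acat2 rose from 3.07 and 4.02 to 5.05 and 4.80 (0.43 ± 0.11, adjusted p = 0.0024), and from 3.50 and 3.74 to 5.30 and 5.88 (0.56 ± 0.11, adjusted p = 0.00026). Its reads may be shared with the Acat2-like gene Acat2l1, which changed by 0.24 ± 0.12 and 0.34 ± 0.12. Hmgcs1, chromosome 2 at 52431601 to 52445055, went the other way, from 27.4 and 35.0 to 22.3 and 25.1 (-0.38 ± 0.14, adjusted p = 0.031), and from 33.5 and 35.0 to 22.6 and 23.5 with SKF (-0.56 ± 0.14, adjusted p = 0.0033). Fdps, farnesyl diphosphate synthase, was called with SKF present, falling from 38.9 and 40.8 to 30.2 and 34.9 (-0.29 ± 0.08, adjusted p = 0.005), and not with JQ1 alone (-0.13 ± 0.08), but the difference between the JQ1 effects was -0.17 ± 0.11 and did not pass its test. Pmvk, Mvd and Idi1 passed in neither.

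The sterol arm had 1 gene higher and 4 lower of 11 in both comparisons. Fdft1, on chromosome 15 at 46339249 to 46367302, had the lowest estimate with all libraries, close to that of Srebf1. It went from 5.42 and 7.13 FPKM to 3.28 and 3.68 (-0.76 ± 0.18, limma adjusted p = 0.0027) and, with SKF, from 6.80 and 7.17 to 3.09 and 4.22 (-0.86 ± 0.18, adjusted p = 0.001). No library with JQ1 reached the lowest library without it. With JQ1 alone its change was -0.94 without DMSO replicate 5 and -0.58 without DMSO replicate 6, where that of Srebf1 was -0.75. Nsdhl, a dehydrogenase that helps remove methyl groups from sterols, fell from 8.12 and 9.06 to 6.29 and 6.91 (-0.36 ± 0.07) and from 8.60 and 9.35 to 6.29 and 6.74 (-0.43 ± 0.07). Msmo1 fell from 15.9 and 19.3 to 14.2 and 15.0 (-0.26 ± 0.10) and from 19.9 and 21.6 to 17.5 and 15.9 (-0.31 ± 0.10). Tm7sf2, a sterol reductase, fell by 0.25 ± 0.09 and by 0.26 ± 0.09 on the log2 scale. Tm7sf2 overlaps Vps51 on the same strand, and Vps51 fell in the same comparisons, by 0.41 ± 0.06 and 0.36 ± 0.06, so its reads cannot be fully separated here. Dhcr7 was the gene that rose, from 9.98 and 13.1 to 15.4 and 15.9 (0.44 ± 0.11) and from 12.7 and 13.4 to 16.6 and 19.1 (0.43 ± 0.11). Cyp51 and Sqle, the squalene epoxidase, passed in neither: the estimates were 0.00 ± 0.09 and -0.12 ± 0.09 for Cyp51 and 0.04 ± 0.11 and -0.09 ± 0.11 for Sqle.

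Among the 5 regulators 2 rose and 1 fell with JQ1 alone, and 1 rose and 2 fell with SKF. Srebf1, on the minus strand of chromosome 10 at 46570996 to 46593009, fell from 8.74 and 8.37 FPKM to 5.12 and 4.87 (-0.72 ± 0.06, limma adjusted p = 9.6e-08) and from 8.88 and 9.81 to 6.14 and 6.66 with SKF (-0.51 ± 0.06, adjusted p = 4.3e-06). It had the smallest p of the list with JQ1 alone, and Rai1, which it overlaps on the opposite strand, changed by 0.06 ± 0.06 and -0.03 ± 0.06. Srebf2 was at 22.7 and 27.9 against 25.2 and 27.3, and at 27.6 and 28.7 against 23.0 and 27.5, and passed in neither. Scap rose from 29.2 and 29.1 to 37.5 and 37.6 (0.36 ± 0.04) and from 29.2 and 30.1 to 38.3 and 40.4 (0.40 ± 0.04). Insig1 went from 3.54 and 5.07 to 2.88 and 3.95 with JQ1 alone (-0.29, not passing), and fell from 5.45 and 5.98 to 3.29 and 3.39 with SKF (-0.69 ± 0.20, adjusted p = 0.0072). Stard4 rose with JQ1 alone, from 0.817 and 1.05 to 1.45 and 1.48 (0.46 ± 0.10, adjusted p = 0.0013; 0.34 without DMSO replicate 5 and 0.58 without DMSO replicate 6), and was not called with SKF (0.20 ± 0.10, adjusted p = 0.12).

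In the fatty acid arm 2 of 7 genes, Acly and Fasn, rose, and 3 fell with JQ1 alone and 4 with SKF. Acly, which releases acetyl-CoA from citrate, went from 42.4 and 45.1 FPKM to 49.3 and 52.3 (0.21 ± 0.06, limma adjusted p = 0.0045) and from 46.5 and 47.3 to 53.5 and 54.8 (0.21 ± 0.06, adjusted p = 0.0056). Fasn, fatty acid synthase, went from 47.1 and 52.5 to 60.3 and 69.8 (0.38 ± 0.09) and from 52.4 and 58.5 to 64.8 and 75.9 (0.34 ± 0.09). Acaca, between them, was called in neither (-0.14 ± 0.07 in both). Elovl6, which lengthens palmitate, fell from 6.68 and 7.66 to 4.96 and 5.28 (-0.45 ± 0.09) and from 7.12 and 7.76 to 4.94 and 4.95 (-0.54 ± 0.09). Fads2 fell from 21.6 and 24.6 to 15.7 in both libraries (-0.54 ± 0.07, adjusted p = 4e-06) and from 24.6 and 25.8 to 16.8 and 18.3 (-0.51 ± 0.07). Fads1, its neighbour on chromosome 1, fell by 0.25 ± 0.05 and by 0.26 ± 0.05 on the log2 scale. Scd fell with SKF present, from 0.712 and 1.07 to 0.508 and 0.551 (-0.42 ± 0.14, adjusted p = 0.017), and its reads may be shared with its paralog Scd2.

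With JQ1 alone, Acat2 (0.26, limma adjusted p = 0.064), Dhcr7 (0.25, adjusted p = 0.057), Acly (0.17, adjusted p = 0.052) and Tm7sf2 (-0.17, adjusted p = 0.18) did not pass without DMSO replicate 5, and Hmgcs1 (-0.21, adjusted p = 0.30) and Msmo1 (-0.12, adjusted p = 0.35) without DMSO replicate 6. Leaving out JQ1 replicate 5 ended the calls of Hmgcs1 (-0.30), Msmo1 (-0.22) and Tm7sf2 (-0.20), and JQ1 replicate 6 those of Acly (0.17) and Msmo1 (-0.30). With SKF present, Tm7sf2 (-0.16), Msmo1 (-0.25) and Scd (-0.24) were lost without SKF replicate 6, Fasn (0.26) without SKF replicate 5, Fdps (-0.19), Tm7sf2 (-0.22) and Scd (-0.39) without SKF with JQ1 replicate 5, and Fasn (0.23) and Msmo1 (-0.24) without its replicate 6. Mvk, Fdft1, Nsdhl, Srebf1, Scap, Elovl6, Fads1 and Fads2 passed in both comparisons under all 31 alternatives. Without the filter on low values Hmgcs1 and Msmo1 were lost with JQ1 alone and Msmo1 and Scd with SKF. On FPKM as deposited Acly was lost with JQ1 alone (0.12), with voom Hmgcs1 (-0.39), and in experiment 3 fitted alone Tm7sf2 with JQ1 alone and Scd with SKF.

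Markers of neurons and glia were also called in the same comparisons, where 28.1% of all genes rose and 28.6% fell. With SKF present these shares were 27.7% and 28.7%. The neuron, astrocyte and oligodendrocyte lineage lists went in both directions and are not read as changes of a cell type. All 10 microglia markers fell with JQ1 at 24 h, to sums of 15.6 and 11.4 FPKM from 90.1 and 74.0, and to 2.48 and 1.32 from 45.4 and 32.6 with SKF. Of these, 2 markers were at 0 in each JQ1 library and 2 or 3 in the libraries with both agents; Itgam was at 0 in both JQ1 libraries and Aif1 in both with both agents. Of the astrocyte markers 1 of 10 rose and 4 fell with JQ1 alone, at sums of 480 and 413 against 550 and 454 with none at 0, and 4 rose and 2 fell with SKF, at 596 and 456 against 459 and 437. Of 10 oligodendrocyte lineage markers tested 3 rose and 4 fell, and with SKF 3 rose and 2 fell. Over all 11 genes of that list, sums were 71.5 and 58.4 against 61.3 and 52.8, and 79.3 and 63.6 against 52.5 and 52.3. In JQ1 replicate 6, 1 of the 11 was at 0. Aqp4 was at 12 to 16.0 FPKM with JQ1 against 50.3 to 60.8 with DMSO (-1.95 ± 0.18, limma adjusted p = 6.6e-07). That was the largest change of the 10 astrocyte markers, and Gja1, Aldoc and Slc1a2 fell less (-0.58, -0.57 and -0.26). Fabp7 was the 1 that rose with JQ1 alone (0.47 ± 0.14). The 4 that rose with SKF were Fabp7 (0.82), Gfap (0.48), Sox9 (0.39) and Slc1a3 (0.36). Of the 10 neuron markers 1 rose and 2 fell with JQ1 alone, at sums of 2550 and 2700 against 2650 and 2930, and 1 rose and 3 fell with SKF, at 2340 and 2620 against 2750 and 2790. Tubb3 changed by -0.50 ± 0.05 and -0.51 ± 0.05, Rbfox3 by -0.24 ± 0.08 and -0.37 ± 0.08, and Bcl11b by 0.17 ± 0.05 and 0.13 ± 0.05. Stmn2 fell with SKF present, with a change of -0.20 ± 0.07. Col1a1, of the fibroblast list, fell with JQ1 alone (-0.77 ± 0.18, adjusted p = 0.0014), and its value with SKF was -0.34 ± 0.18. The part of these cells in the member changes was not tested.

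**Figure D5:**
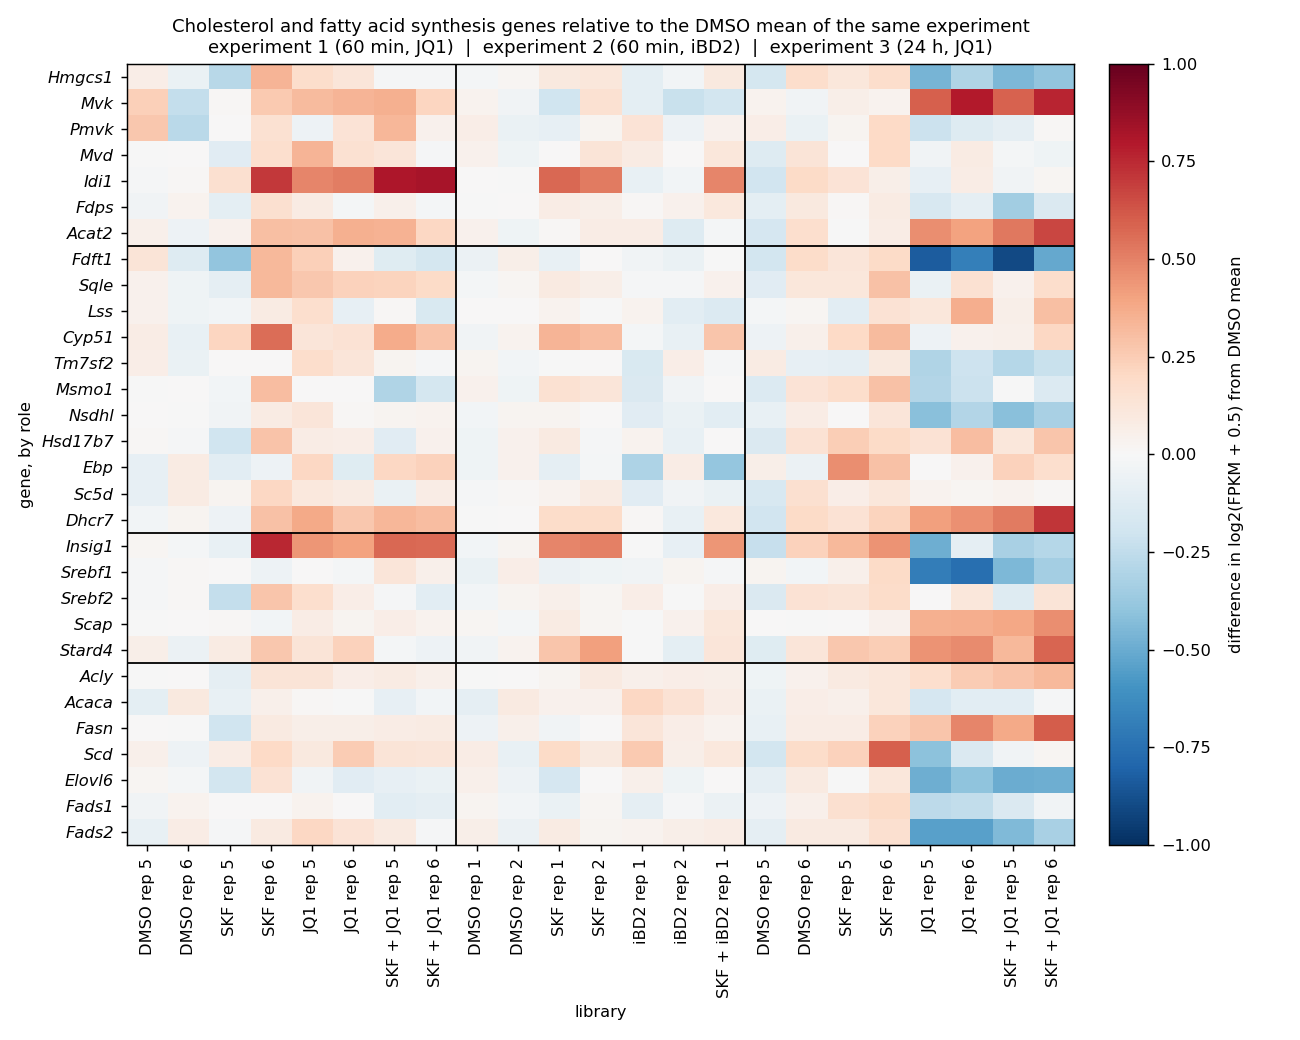
Difference of each library from the DMSO mean of its own experiment, in log2(FPKM + 0.5), for the 30 genes (rows, by role) and 23 libraries (columns, by experiment and group). At 60 min the strongest rows are Idi1, Insig1 and Cyp51, and at 24 h the JQ1 columns are split between higher rows (Mvk, Acat2, Dhcr7, Scap) and lower rows (Fdft1, Srebf1, Fads2, Elovl6).

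The 24 h JQ1 effect did not pass a test of difference between cultures with and without SKF for any member (0.0429% of all genes did). There was 1 unadjusted p under 0.05, for Srebf1 (5.73% of all genes). Its difference was 0.21 ± 0.09 (limma adjusted p = 0.85), the smaller fall being with SKF. For Insig1 it was -0.40 ± 0.28, with a 95% interval of -0.99 to 0.19, and for Stard4 -0.26 ± 0.15 (-0.58 to 0.05). In 25 of 30 members the difference was below 0 and in 5 above (47.6% of all genes), and 13 or 14 were above 0 without DMSO replicate 5, JQ1 replicate 6, SKF replicate 6 or SKF with JQ1 replicate 5.

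Between 60 min and 24 h the JQ1 effect differed for 9 members, 1 higher and 8 lower at 24 h, against 17.0% and 19.7% of all genes. Together these 9 are not above the share of all genes that differed in either direction. Each time has its own experiment and DMSO group, so time and experiment cannot be told apart. Srebf1 changed by -0.01 at 60 min, from 8.22 and 8.38 to 8.33 and 8.17 FPKM, and by -0.72 at 24 h, a difference of -0.71 ± 0.09 (limma adjusted p = 1.8e-05). Fads2 changed by 0.17 ± 0.07 and -0.54 ± 0.07, a difference of -0.71 ± 0.10 (adjusted p = 2.8e-05). Idi1 changed by 0.50 at 60 min and by 0.00 at 24 h, at 6.50 and 8.65 FPKM with DMSO and 7.08 and 7.92 with JQ1. Scap was the gene with the higher effect at 24 h (0.31 ± 0.06, adjusted p = 0.00053). Calls in all genes were 46.3% higher, and 31.8% on FPKM as deposited, where the members were 1 higher and 11 lower.

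Genes around the pathway were taken from 4 further lists. With SKF for 60 min 2 of the 60 that were tested passed, both higher, against 3.11% of all genes: Elovl5, an elongase of polyunsaturated fatty acids (0.29 ± 0.03, limma adjusted p = 4.2e-06), and Mylip, a ubiquitin ligase that sends lipoprotein receptors to degradation (0.18 ± 0.05, adjusted p = 0.038). JQ1 for 60 min raised Mylip by 0.93 ± 0.07 (adjusted p = 8.5e-08) and the elongase Elovl4 by 0.28 ± 0.06, where 1.86% of all genes rose and 2.54% fell. When JQ1 was added to SKF, Mylip rose by 0.96 ± 0.07, where 2.74% of all genes rose and 3.81% fell. In that comparison Vldlr, a lipoprotein receptor, fell by 0.22 ± 0.06 and Oxsm, of mitochondrial fatty acid synthesis, by 0.37 ± 0.07. The JQ1 effect on Mylip exceeded the iBD2 effect by 0.88 ± 0.10 (adjusted p = 9.6e-05), though agent and experiment cannot be told apart. SKF for 24 h left Mylip lower, by a log2 change of -0.48 ± 0.07, and Abcg1, a sterol exporter, by -0.22 ± 0.05. Of all genes 0.636% rose and 0.857% fell there.

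After 24 h of JQ1, 7 of 17 genes of sterol sensing, uptake and transport rose and 4 fell, 7 of 12 of sterol efflux and turnover rose and 3 fell, 3 of 10 of the isoprenoid branch rose and none fell, and 6 of 21 other fatty acid genes rose and 5 fell. Of all genes 28.1% rose and 28.6% fell. With SKF the lists had 5 and 3, 8 and 1, 3 and 1, and 6 and 3, where 27.7% of all genes rose and 28.7% fell. Acss2, which makes acetyl-CoA from acetate, had the smallest p in both, rising by 1.03 ± 0.07 (limma adjusted p = 3.7e-09) and 1.15 ± 0.07. Me1, the malic enzyme that supplies NADPH for fatty acid synthesis, fell by 0.88 ± 0.08 on the log2 scale with JQ1 alone. Scarb1, a lipoprotein receptor, fell by 0.82 ± 0.08 and by 1.09 ± 0.08, and Abcg4, a sterol exporter, by 0.90 ± 0.10 and by 1.20 ± 0.10. Fnta, a subunit of the protein farnesyltransferase, rose by 0.58 ± 0.05 with SKF present (adjusted p = 1e-07).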

How the data were processed

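Total RNA of 23 libraries was sequenced after ribosomal RNA depletion. The submitters' processing notes name StringTie, STAR, DESeq2, FastQC and Trim Galore and the genome build Rnor_6.0, with no versions, roles or settings. The authors deposited 1 table per library, with FPKM and mean base coverage for each transcript, per the file headers. DESeq2 was not used here, since these values are not counts.

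FPKM was summed over transcripts by gene. Each library was divided by a median-ratio size factor, and genes were tested when at 0.5 FPKM or more in at least 2 libraries with a longest transcript of at least 200 nt, which left 13999. Changes were fitted to log2(FPKM + 0.5) with limma 3.58.1 in R 4.3.3 (trend, robust), with 1 mean per group over all 23 libraries and 11 residual degrees of freedom. The group of 1 library was assumed to vary like the others. P-values were two-sided and adjusted by Benjamini-Hochberg over the genes tested in each of 15 comparisons, with calls at 0.05. The deposited coverage served to estimate fragments, as coverage times length over 202 bases, for depth and for 1 alternative fit. The fit was tested on simulated data.

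The members and lists were chosen with earlier results of these data known. All 30 members could be named, and from the other pathway lists those that passed with the smallest p-values, at most 4 in a comparison. The alternatives were to leave out each library, to skip the size factors, to add 0.1 or 1 in place of 0.5, to drop the filter, to add a replicate block, to fit an experiment alone, and to run voom on estimated fragments. Size factors from genes at 1 FPKM or more in every library were added after seeing the data.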

Additional observations from a re-analysis of the deposited data

Results flagged for a closer look

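The effect of JQ1 differed between 60 min and 24 h for 9 of 30 members, by the limma test of the difference itself. Of all genes 17.0% had a higher effect at 24 h and 19.7% a lower one. The number of members called was thus not above the share of all genes that differed in either direction. The differences, 24 h minus 60 min on the log2 scale, were -0.90 for Fdft1, -0.71 for Srebf1, -0.71 for Fads2, -0.50 for Idi1, -0.42 for Nsdhl, -0.40 for Tm7sf2, -0.37 for Elovl6, -0.27 for Fads1 and 0.31 for Scap. The differences for Srebf1, Fads2, Nsdhl, Fads1 and Scap passed in all 30 alternatives. Idi1 was lost in 8 of them (as far as -0.31, adjusted p = 0.20, without DMSO replicate 6 of experiment 3), Elovl6 in 7 (-0.28, adjusted p = 0.14, without the same library), Fdft1 in 5 (-0.72, adjusted p = 0.068, without it) and Tm7sf2 in 4 (-0.32, adjusted p = 0.078, without DMSO replicate 5 of experiment 3). Tm7sf2 overlaps Vps51, whose difference was -0.39 ± 0.09 (adjusted p = 0.0025). The 2 times come from different experiments, which cannot be told apart from time.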

How the results depend on the processing

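Leaving out each library in turn gave 2 to 5 members called with SKF at 60 min in both experiments, 0 to 3 in experiment 1, 0 to 3 in experiment 2, 0 to 2 with JQ1 at 60 min, 0 to 2 with JQ1 added to SKF, 0 to 1 for JQ1 against iBD2, 0 to 1 for SKF at 24 h against 60 min, 13 to 16 with JQ1 at 24 h, 15 to 18 with JQ1 added to SKF at 24 h and 5 to 12 for JQ1 at 24 h against 60 min, and 0 in the other comparisons. Without the filter on low values the counts were 0 for SKF in experiment 1, SKF in experiment 2, JQ1 at 60 min and JQ1 added to SKF at 60 min. With an experiment fitted alone they were 0, 3, 0 and 0, and voom gave 2 for SKF in experiment 2 and 0 for JQ1 at 60 min. The sign turned for Insig1 with SKF in experiment 1 without SKF replicate 6 (range over libraries -0.08 to 0.75), for Insig1 with JQ1 added to SKF at 60 min without SKF replicate 5 (-0.18 to 0.65), and for Pmvk in JQ1 at 24 h against 60 min without DMSO replicate 6 of experiment 1 (-0.48 to 0.06). None of these 3 had passed the test, and the cause was not tested. Values of called members kept direction and call in 1074 leave-one-out fits and 361 others, and lost the call in 53 and 20. Values that had not passed did so in 45 leave-one-out fits and 22 others. Each comparison uses only some of the libraries. Leaving out any other library kept the estimate and changed only the shared spread, so these counts overstate how stable the calls are. With a replicate block the counts were 2 with SKF at 60 min, 18 with JQ1 at 24 h, 18 with JQ1 added to SKF and 13 for the difference between times. Libraries of the same number shared deviations with correlations between -0.27 and 0.37, not of 1 sign, but in experiment 3 replicate 6 was higher for 24 to 26 of 30 members in every group. The labels do not say what the numbers mean, so the design does not give a pairing. On FPKM as deposited the median of all genes was -0.081 for JQ1 at 24 h, against 0.01 after scaling. Groups of 2 libraries limit the precision of every value.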
